A study of Mus musculus with 6 samples.

Results

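Expression of 10 Wnt pathway genes was followed in the aging cochlear lateral wall, the outer wall of the cochlear duct: the Frizzled receptors Fzd1, Fzd2, Fzd4 and Fzd8 and the secreted antagonists Sfrp1, Sfrp2, Sfrp4, Dkk2, Dkk3 and Wif1. All probe sets whose single platform symbol was one of these 10 names were taken, which gave 21 of 45037 probe sets, for 10 of 18193 named genes. The old group was tissue of CBA/CaJ mice aged 1.5 years and the young group tissue of CBA/CaJ mice aged 1 to 3 months, with 3 arrays per age. No treatment is named, mice of both sexes were used, and the labels do not say whether a sample came from 1 animal or from several. P-values therefore measure the spread among these samples, which may be partly technical. The tissue label was borne out by Coch of spiral ligament fibrocytes, at 14.36 to 14.39 in old and 14.43 to 14.45 in young tissue, and Dct of strial intermediate cells, at 14.04 to 14.09 in old and 14.03 to 14.10 in young tissue. Of 5 sensory hair cell markers, Pou4f3 was the dimmest, at 3.58 to 3.82 in old and 3.47 to 3.90 in young tissue, and Otof the brightest, at 6.12 to 6.81 in old and 6.07 to 6.35 in young tissue, near the median of all values, 6.28. Whether hair cell RNA is present was therefore not settled by these arrays. Young replicate 2 stood apart in sex-linked RNA. Xist, transcribed from the inactive X, read 6.06 on it and 11.95 to 12.65 on the other 5 arrays, and Uty, on the Y chromosome, read 8.99 on it and 7.41 to 8.03 elsewhere. Eif2s3y and Kdm5d, also on the Y chromosome, read 10.46 and 8.96 on it, and 8.97 to 9.71 and 7.19 to 8.04 elsewhere. Each of the other 5 arrays thus read Xist and these Y-linked genes above the median of all values. A sample with RNA of both sexes would read so, but the labels do not say whether a sample holds it.

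Wnt proteins are secreted lipid-modified ligands that bind Frizzled receptors, and with the coreceptors Lrp5 and Lrp6 they stabilise β-catenin, the product of Ctnnb1. The secreted Frizzled-related proteins (the Sfrp genes) carry a Frizzled-like cysteine-rich domain and bind Wnts outside the cell, and Wif1 binds Wnts through a different domain. Dickkopf proteins such as Dkk2 bind the Lrp coreceptors instead, whereas Dkk3 is a divergent member of that family. In the inner ear and retina Fzd4 is also the receptor for norrin and is needed for normal vessels. Several of the antagonists are made by bone cells as well, and bone lies next to the lateral wall.

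Values are log2 signals of single probe sets, a mean is given ± SD over 3 arrays, and a difference is old minus young ± its standard error from limma. Of the 21 probe sets, 2 passed a limma adjusted p of 0.05, against 4.71% of all 45037 probe sets. Fzd8 rose at 1 of its 2 probe sets and Sfrp4 fell, while the other 8 genes did not pass. Without young replicate 2, 2 of the 21 passed as well, against 7.53% of all probe sets in that fit. By direction, 1 of the 21 rose, against 1.86% of all probe sets, and 1 fell, against 2.84%. At 1 probe set per gene, the brightest, 2 of 10 genes passed, against 4.78% of all 18193 genes. The genes were chosen with earlier results of these data known, so these shares are no test of the set. The old and young arrays did not overlap for 4 of the 21 probe sets (19.0%), against 23.8% of all probe sets, and for 4 of the 10 genes, against 26.7% of all genes. Differences were positive for 9 of the 21 and negative for 12. Their median was -0.07, and the median over all probe sets was 0.01.

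**Figure D1:**
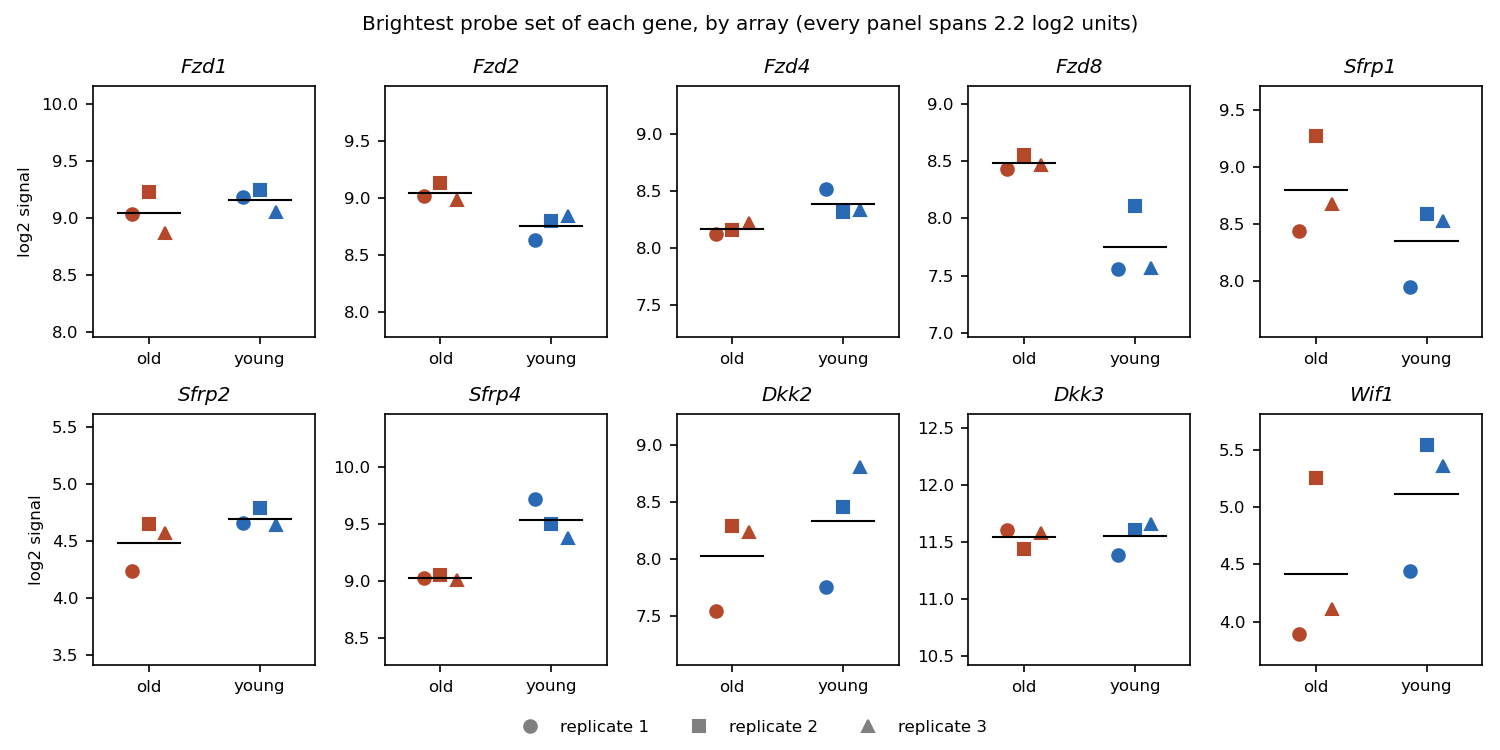
Log2 signal of the brightest probe set of each of the 10 genes, with old arrays (red) left of young arrays (blue), 1 marker shape per replicate number and a black line at the group mean. Old and young arrays do not overlap for Fzd2, Fzd4, Fzd8 and Sfrp4, and the arrays of 1 age lie far apart for Sfrp1, Dkk2 and Wif1.

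Among the receptors, the brighter probe set of Fzd8 (1423348_at) read 8.43, 8.56 and 8.47 on the old arrays, against 7.56, 8.11 and 7.57 on the young arrays. Every old array was above every young one, and young replicate 2 stood between the other young arrays and the old ones. The means were 8.49 ± 0.07 in old and 7.75 ± 0.31 in young tissue, a difference of 0.74 ± 0.15, or 1.67-fold (limma adjusted p = 0.0286). The dimmer probe set (1445815_at) read 6.29, 6.54 and 6.34 in old tissue, against 6.08, 6.39 and 6.32 in young tissue. Its groups overlapped, with a difference of 0.13 and a 95% interval of -0.12 to 0.38 (limma adjusted p = 0.621). Whether the 2 probe sets differ from each other was not tested, and their mean had a difference of 0.43 that did not pass (limma adjusted p = 0.0682).

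The call of Fzd8 rested on the full set of arrays. Leaving out any array except young replicate 2 raised its limma adjusted p to between 0.0730 and 0.116, with differences of 0.65 to 0.77. Without young replicate 2 the difference was 0.92 (limma adjusted p = 0.00264). This is the array that stood apart in Xist, and the part of its sex make-up in the Fzd8 value was not tested.

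Summed signals were higher on all old than on all young arrays, as Fzd8 was, for several marker lists. These were the lists of strial basal cells, strial marginal cells, macrophages and Schwann cells. A summed log2 signal here is the log2 of the added unlogged signals of a list, so the brightest genes weigh most. The summed log2 signal was 13.50 to 13.54 in old and 13.28 to 13.46 in young tissue over 4 basal cell genes, with 1 risen (Sox8). Cldn11, the brightest of these 4, overlapped between the ages, with a difference of 0.05 (limma adjusted p = 0.834). Over 5 marginal cell genes the sum was 15.18 to 15.24 in old and 15.07 to 15.13 in young tissue. Of these 5, 0 passed the limma threshold and 2 were higher at an unadjusted p under 0.05, against 13.5% of all genes. Their differences ran from 0.39 for Esrrb (limma adjusted p = 0.101) to 0.01 for Slc12a2 (limma adjusted p = 0.980). Over 6 macrophage genes the sum was 11.55 to 11.69 in old and 11.46 to 11.51 in young tissue. Of these 6, 4 had positive differences, with 1 risen (Cd68), and 2 negative ones (Mrc1 -0.32 and Csf1r -0.08, neither passing). Over the 2 measured of 4 Schwann cell genes the sum was 11.93 to 11.96 in old and 11.57 to 11.78 in young tissue. Sox10, the brighter of these 2, rose, while Mbp, a myelin gene, had a difference of 0.02 (limma adjusted p = 0.940). The 2 genes did not move together, so this sum is no measure of Schwann cells as a type. The part of these lists in the Fzd8 value was not tested, and in whole tissue more cells of a type and more RNA per cell cannot be told apart.

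Fzd4, the norrin receptor, had negative differences at all 3 of its probe sets and did not pass. The brightest (1434756_at) read 8.12, 8.16 and 8.22 in old tissue, against 8.52, 8.32 and 8.33 in young tissue. The old arrays all lay below the young ones, with the highest old at 8.22 and the lowest young at 8.32. The difference was -0.22 ± 0.09, against a pooled within-age SD of 0.09, with a 95% interval of -0.42 to -0.03 (limma adjusted p = 0.196). A second probe set had a difference of -0.26 (limma adjusted p = 0.254). The dimmest, at 3.35 to 3.65 over all arrays, had one of -0.12 (limma adjusted p = 0.541).

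Fzd2 gave different answers at its 3 probe sets. The brightest (1418534_at) read 9.02, 9.13 and 8.98 in old tissue and 8.63, 8.80 and 8.84 in young tissue, a difference of 0.29 ± 0.09 (limma adjusted p = 0.114). The other 2 probe sets overlapped between the ages. One differed by -0.12 (limma adjusted p = 0.625) and the other by -0.07 (limma adjusted p = 0.820). One of these, 1418533_s_at, is of a type that by its suffix may bind transcripts of related genes. Averaged over the 3 probe sets, the difference of Fzd2 was 0.03.

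Fzd1 overlapped between the ages, at 9.03, 9.23 and 8.87 in old tissue and 9.18, 9.24 and 9.05 in young tissue. Its difference was -0.11, with a 95% interval of -0.36 to 0.13 (limma adjusted p = 0.663). Its other probe set was dim, at 3.47 to 3.99 over all arrays, and had a difference of 0.05.

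**Figure D2:**
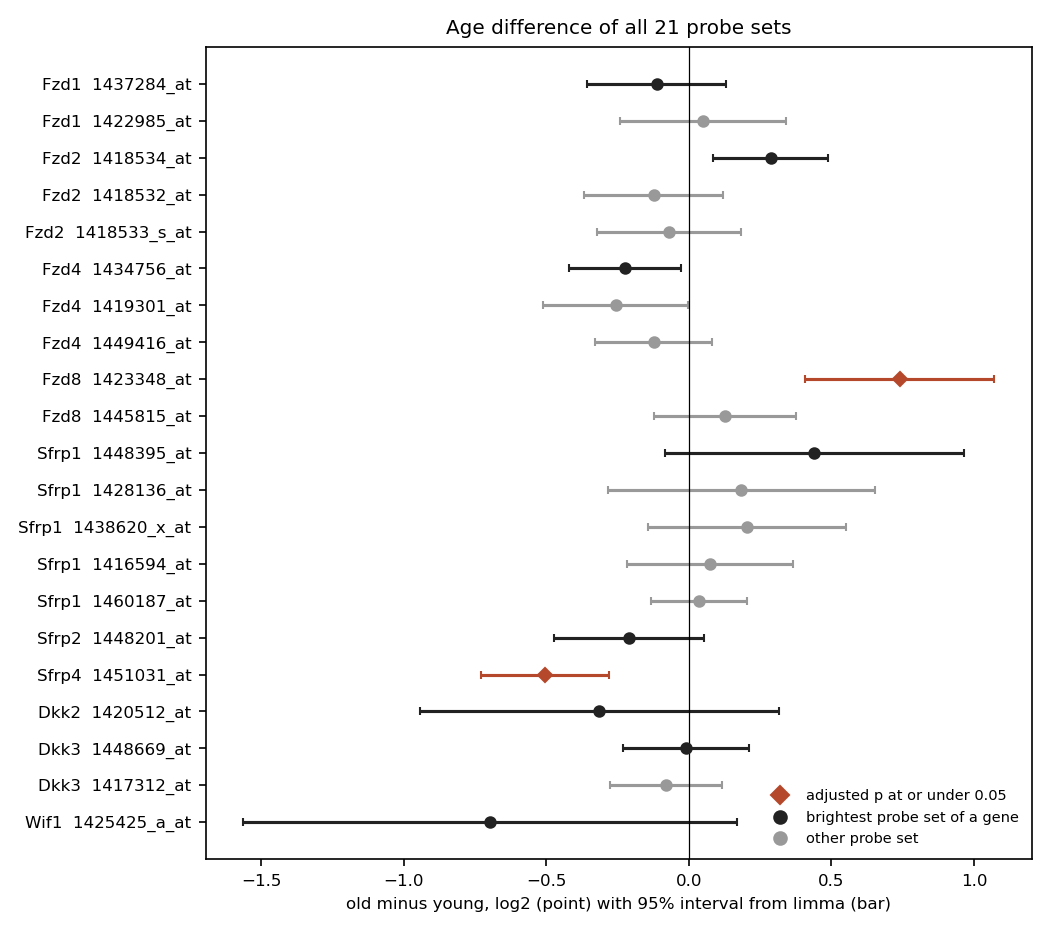
Old minus young difference in log2 signal of all 21 probe sets (points) with its 95% interval from limma (bars). The diamonds mark Fzd8 1423348_at, at 0.74, and Sfrp4, at -0.50, the 2 probe sets that passed, and the widest interval is that of Wif1.

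Among the antagonists, Sfrp4 was the 1 that passed. Sfrp4 binds Wnts and is known for its part in cortical bone. It read 9.03, 9.05 and 9.01 on the old arrays, against 9.72, 9.50 and 9.38 on the young arrays. The old arrays were nearly identical and all below the young ones, with a difference of -0.50 ± 0.10, or 1.42-fold lower (limma adjusted p = 0.0284). Leaving out young replicate 1 or any single old array raised the limma adjusted p to between 0.0555 and 0.119, with differences of -0.51 to -0.41. Without young replicate 2 or young replicate 3 the call held, at 0.0361 and 0.0465.

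Summed signals of bone, marrow and fibroblast markers were lower on all old than on all young arrays, as Sfrp4 was. Over the 7 measured of 11 osteoblast and osteocyte genes, the summed log2 signal was 11.47 to 11.82 in old and 12.51 to 12.80 in young tissue. Of these 7, 3 fell (Dmp1, Phex and Mepe) and 0 rose by limma, none being higher at an unadjusted p under 0.05. Their differences ran from -2.25 for Ibsp, a bone matrix protein, to 0.32 for Alpl, the alkaline phosphatase, and neither of these 2 passed. Over 7 marrow myeloid genes the sum was 9.41 to 10.48 in old and 11.06 to 11.73 in young tissue, with 6 fallen. Over 10 general fibroblast genes it was 14.17 to 14.34 in old and 14.53 to 14.71 in young tissue, with 2 fallen (Col1a2 and Col3a1) and 3 with positive differences. All 6 smooth muscle and pericyte genes had negative differences and 2 fell, Tagln with a difference of -1.23 (limma adjusted p = 0.00393) and Acta2 with one of -0.74 (limma adjusted p = 0.00612), while their sum overlapped slightly, at 12.24 to 12.36 in old and 12.35 to 12.78 in young tissue. The spiral ligament fibrocyte genes summed to 16.41 to 16.45 in old and 16.46 to 16.48 in young tissue, with 0 of 7 past the limma threshold and 1 lower at an unadjusted p under 0.05, against 7.23% of all genes. The part of these lists in the Sfrp4 value was not tested. The difference between the 3′ and 5′ control probe sets of Gapdh, a measure of RNA integrity and labelling, was 1.26 to 1.45 in old and 1.07 to 1.25 in young tissue, and that of Actb overlapped.

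Wif1, Dkk2 and Sfrp1 varied more among arrays of 1 age than nearly all other probe sets. The pooled within-age SD was 0.67 for Wif1, above that of 99.9% of all probe sets, 0.48 for Dkk2, above 99.7%, and 0.39 for the brightest probe set of Sfrp1, above 99.2%. The median over all probe sets was 0.12. Values of the other 7 genes at their brightest probe sets were 0.09 for Fzd4 to 0.23 for Fzd8.

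Wif1 read 3.89, 5.26 and 4.11 on the old arrays, against 4.44, 5.55 and 5.36 on the young arrays. Replicate 1 was the lowest and replicate 2 the highest within each age, and the groups overlapped. The difference was -0.70 ± 0.38, with a 95% interval of -1.56 to 0.17 (limma adjusted p = 0.378). All 6 values lay below the median of all values, 6.28, so this is a dim probe set.

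Dkk2, which binds Lrp6 and is known for a role in osteoblast mineralisation, read 7.54, 8.29 and 8.23 on the old arrays, against 7.75, 8.45 and 8.80 on the young arrays. Replicate 1 was again the lowest array of each age, and the groups overlapped, with a difference of -0.31 ± 0.28 and a 95% interval of -0.94 to 0.32 (limma adjusted p = 0.632). The difference was -0.07 without old replicate 1 and -0.61 without young replicate 1.

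Sfrp1, a Wnt-binding antagonist whose loss raises bone mass in mice, had 5 probe sets, and all had positive differences, of 0.04 to 0.44, of which 2 turned negative when 1 array was left out. The brightest (1448395_at) read 8.44, 9.27 and 8.68 in old tissue, against 7.95, 8.59 and 8.53 in young tissue. Old replicate 2 stood above all other arrays and the groups overlapped, with a difference of 0.44 ± 0.23 (limma adjusted p = 0.355). The other 4 probe sets had limma adjusted p of 0.554 to 0.864. One of these, 1460187_at, was dim, at 3.46 to 3.56 in old and 3.45 to 3.48 in young tissue. Another, 1438620_x_at, is of a type that by its suffix may bind transcripts of other genes. The 5 share 1 gene and 1 set of arrays, so they are not independent readings.

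**Figure D3:**
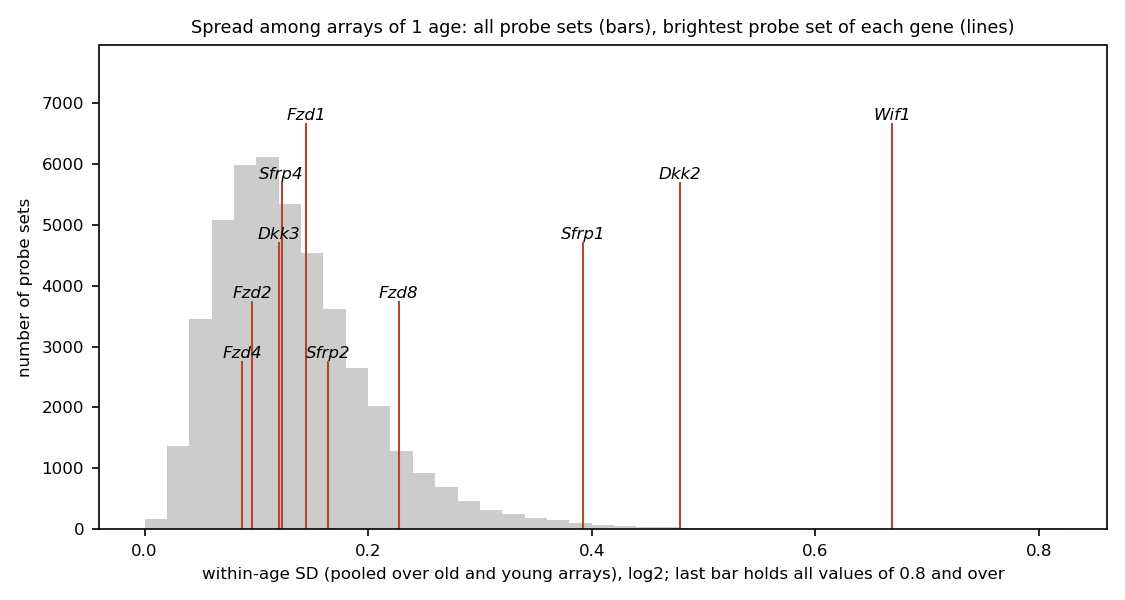
Number of probe sets by within-age SD in log2 units (grey bars, all 45037 probe sets) with the brightest probe set of each of the 10 genes as a red line. Wif1 at 0.67, Dkk2 at 0.48 and Sfrp1 at 0.39 lie in the upper tail, and the other 7 genes lie at 0.23 or under.

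The stretch before the transcript start is shown for Dkk2 and Wif1, the pair with the largest spread among arrays, to set their start regions side by side. RefSeq start windows were held for 5 of the 10 genes (Dkk2, Fzd1, Fzd4, Sfrp2 and Wif1). The 250 bases before the start are chr3:132085042-132085291 for Dkk2 and chr10:121033754-121034003 for Wif1, both on the plus strand of GRCm38.p6. Capitals mark the letters TATAAA (the TATA box) and GGGCGG (the GC box bound by Sp1), searched on both strands.
Dkk2: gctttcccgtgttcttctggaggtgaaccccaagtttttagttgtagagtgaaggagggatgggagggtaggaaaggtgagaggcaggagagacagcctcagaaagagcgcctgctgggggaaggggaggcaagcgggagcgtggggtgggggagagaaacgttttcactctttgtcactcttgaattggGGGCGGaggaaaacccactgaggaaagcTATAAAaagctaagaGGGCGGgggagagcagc
Wif1: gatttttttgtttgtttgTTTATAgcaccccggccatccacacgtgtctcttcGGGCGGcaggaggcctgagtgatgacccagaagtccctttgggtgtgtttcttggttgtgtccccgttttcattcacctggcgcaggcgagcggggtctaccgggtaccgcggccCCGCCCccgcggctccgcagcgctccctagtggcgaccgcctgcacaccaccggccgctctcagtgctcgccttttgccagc
In Dkk2, TATAAA begins 32 bases before the start and GGGCGG begins 60 and 17 bases before it. In Wif1, TATAAA occurs on the opposite strand 232 bases before the start, and GGGCGG occurs on the plus strand 197 bases and on the opposite strand 82 bases before it. TATAAA is in 12.4% and GGGCGG in 32.7% of the 32851 windows of this length. The TCF/LEF letters CTTTGAT or CTTTGAA, the Runx letters TGTGGTT and the AP-1 letters TGAGTCA or TGACTCA, held by 7.48%, 4.40% and 4.46% of windows, are not in either window. Such matches describe letters and are not evidence of binding.

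Dkk3 and Sfrp2 complete the antagonists. Dkk3 read 11.61, 11.44 and 11.58 in old tissue, against 11.39, 11.61 and 11.66 in young tissue. The groups overlapped fully, with a difference of -0.01 and a 95% interval of -0.23 to 0.21 (limma adjusted p = 0.976), and its other probe set had a difference of -0.08 and an interval of -0.28 to 0.12. A change of Dkk3 beyond 0.28 log2 units lies outside both intervals. Sfrp2 was dim, at 4.24, 4.65 and 4.57 in old tissue and 4.66, 4.79 and 4.64 in young tissue, with a difference of -0.21 and an interval of -0.47 to 0.05 (limma adjusted p = 0.384).

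The other Wnt pathway genes were taken from 6 lists, of which 90 of 92 genes were measured. By limma 3 of the 90 fell, 0 rose and 87 did not pass, against 2.33% of all genes called lower and 2.45% called higher. At an unadjusted p under 0.05, 12 were lower (13.3%), against 7.23% of all genes, and 11 higher (12.2%), against 13.5%. The counts at this level in the single lists are to be read against the same shares. These lists too were chosen with earlier results of these data known. The median difference was 0.01, and over all 18193 genes it was 0.03. For each of the 3 (Fzd9, Ccn4 and Prrx1) the highest old array lay below the lowest young one. As the 3 were picked by limma, this gives them no further support. Of the 90, 13 lay wholly higher and 14 wholly lower in old tissue, against 26.7% of all genes in either direction.

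Fzd9, a Frizzled receptor with a role in bone formation in mice, was the 1 of 6 other Frizzled genes that passed. It read 10.59, 10.57 and 10.63 in old tissue, against 11.03, 10.97 and 11.06 in young tissue. Its difference of -0.42 ± 0.07 (limma adjusted p = 0.0192) was several times the spread within an age. Without any 1 old array or young replicate 3, the limma adjusted p was 0.0609 to 0.0856. Fzd3, Fzd5, Fzd6, Fzd7 and Fzd10 had differences of 0.00 to 0.32 and did not pass (Fzd7 0.20, limma adjusted p = 0.446, and Fzd6 0.10, limma adjusted p = 0.611). At an unadjusted p under 0.05, 2 of the 6 were higher, Fzd5 (0.32) and Fzd3 (0.30), and 1 was lower.

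Of 10 other secreted antagonists 0 passed by limma, with 2 higher and 3 lower at an unadjusted p under 0.05. Frzb, a Wnt-binding relative of the Sfrp genes, had a difference of 0.25 (limma adjusted p = 0.262) and Dkk1 one of -0.31 (limma adjusted p = 0.210). Among 21 ligand and secretion genes 0 passed by limma and 1 was higher at an unadjusted p under 0.05. Wnt5a, a ligand mainly of β-catenin-independent signalling, read 11.78 ± 0.04 in old and 11.61 ± 0.06 in young tissue (limma adjusted p = 0.291).

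Coreceptors and intracellular components gave no call. Of 18 measured coreceptor and receptor turnover genes 0 passed by limma, with 0 higher and 2 lower at an unadjusted p under 0.05. Lrp5, Lrp6 and Ror2 had differences of -0.08, 0.05 and -0.02, and Rspo3, a secreted amplifier of Wnt signals, one of 0.14 (limma adjusted p of 0.486 to 0.933). Of 22 intracellular genes 0 passed by limma, with 4 higher and 2 lower at an unadjusted p under 0.05, and Ctnnb1 read 13.87 ± 0.03 in old and 13.86 ± 0.04 in young tissue (limma adjusted p = 0.955).

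Of 13 measured Wnt target genes, Ccn4 and Prrx1 fell and 0 rose by limma, with 2 higher and 4 lower at an unadjusted p under 0.05. Ccn4, a matricellular protein also known as Wisp1, read 7.22, 7.15 and 6.77 in old tissue, against 7.80, 7.71 and 7.78 in young tissue. Its difference was -0.72 ± 0.12 (limma adjusted p = 0.0166), and the adjusted p rose to 0.0549 with young replicate 1 left out and to 0.0771 with young replicate 3 left out. Prrx1, a mesenchymal homeobox factor, had a difference of -0.34 (limma adjusted p = 0.0465), which was -0.17 over the mean of its probe sets (adjusted p = 0.174) and passed on leaving out young replicate 2 and no other array. The feedback target Axin2 read 9.04, 9.16 and 9.20 in old tissue, against 8.80, 8.87 and 8.95 in young tissue, a difference of 0.26 that did not pass (limma adjusted p = 0.126). Lef1, a nuclear partner of β-catenin, had a difference of 0.11 (limma adjusted p = 0.620). Ccn4 and Prrx1 are also expressed by osteoblast precursors. Of the bone genes, Dmp1, Phex and Mepe fell. Sp7, an osteoblast transcription factor, had a difference of -0.04 (limma adjusted p = 0.881) and Alpl one of 0.32 (limma adjusted p = 0.284). The bone, fibroblast and smooth muscle values given beside Sfrp4 apply here too. The part of these lists in the Ccn4 and Prrx1 values was not tested.

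**Figure D4:**
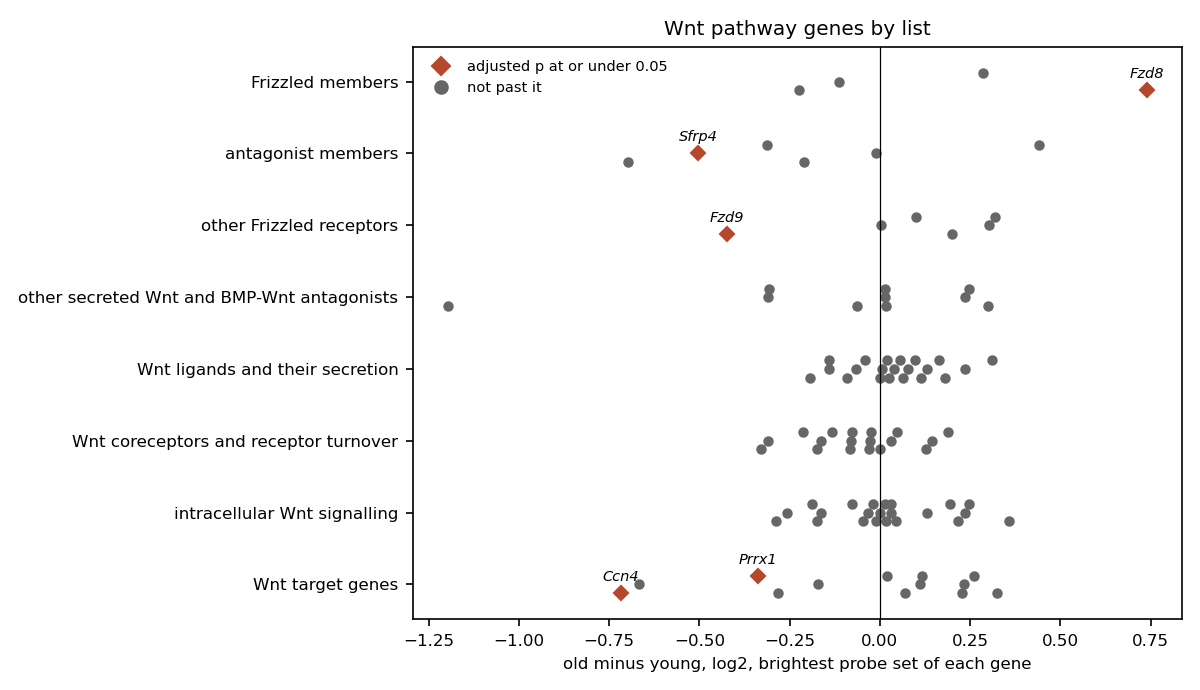
Old minus young difference in log2 signal of the brightest probe set of each gene, with the 4 receptors and 6 antagonists followed here in the upper rows and the other Wnt lists under them. Diamonds mark the genes that passed an adjusted p of 0.05, which are Fzd8 on the right and Sfrp4, Fzd9, Ccn4 and Prrx1 on the left.

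The genes with profiles closest to those of Fzd8 and Sfrp4 were found by Euclidean distance over the 6 arrays, after subtracting each probe set's own mean, among 11594 genes above the median signal. Closest to Fzd8 were E430024I08Rik, Nfya, a subunit of the factor NF-Y, and Ubxn7, at distances of 0.07, 0.08 and 0.12. Nfya read 8.36, 8.45 and 8.47 in old tissue, against 7.48, 8.06 and 7.51 in young tissue. Its high value in young replicate 2, like that of Fzd8, follows from its choice by distance over these arrays. Closest to Sfrp4 were Pdxk, the pyridoxal kinase, Steap4, a metalloreductase, and Gpr37l1, an orphan receptor, at distances of 0.12, 0.14 and 0.14. Pdxk read 11.66, 11.64 and 11.65 in old tissue, against 12.31, 12.06 and 12.09 in young tissue. Pdxk passed (limma adjusted p = 0.0201), while Steap4 and Gpr37l1 did not (limma adjusted p = 0.0735 and 0.0824). With 6 arrays, many genes that differ by age have similar profiles.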

How the data were processed

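Total RNA of cochlear lateral wall was turned into biotinylated cRNA with a 3′ IVT kit, which favours 3′ ends, per the labels' protocols. Affymetrix Expression Console, RMA and MAS5 stand in the submitters' processing notes, with no role or version. The deposited table holds log2 values of 45101 probe sets on 6 arrays, from 2.66 to 14.76, with array medians of 6.26 to 6.30, and its scaling would remove a shift common to most genes. Scanner files were not used here, so detection above background and scan batches are unknown, and 3 arrays per age limit the precision.

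The 64 control probe sets were left out. Names came from GEO's platform annotation, with 34945 probe sets of 1 symbol, 932 of several and 9160 unlisted. All 45037 probe sets were fitted with limma 3.58.1 in R 4.3.3 (lmFit, eBayes, a single term for age), with Benjamini-Hochberg adjustment over all of them. The brightest probe set stood for a gene. The fit was tested on simulated data. The genes and lists were chosen with earlier results of these data known. Named were all 10 genes, other Wnt genes past the threshold, 12 fixed Wnt genes, and the 3 closest profiles of each gene that passed. Marker genes named beside a result were the extremes of a list and those that passed, the latter chosen after their values were seen. Also named on that basis were Xist, Uty, Eif2s3y, Kdm5d, Csf1r, Otof, Fzd3, Fzd5 and the bone and marrow genes of the closing section. Alternatives were 3 normalizations, a filter on dim probe sets, other variance models, array weights, a replicate block, a threshold of 0.01, averaging the probe sets of a gene and leaving out each array. Figures were drawn with matplotlib 3.10.9.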

Additional observations from a re-analysis of the deposited data

How the results depend on the processing

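Over the 21 probe sets and their alternatives, 260 of the results kept direction and side of the threshold, 10 lost the call and 8 changed sign. The sign changes were all of differences that did not pass. With array weights, Fzd1 1422985_at gave -0.0701. On leaving out 1 array, the sign changed within ranges of -0.08 to 0.18 for Fzd1 1422985_at, -0.1567 to 0.0033 for Fzd2 1418533_s_at, -0.06 to 0.355 for Sfrp1 1428136_at, -0.0283 to 0.2167 for Sfrp1 1416594_at and -0.0917 to 0.0433 for Dkk3 1448669_at. The 2 calls, Fzd8 and Sfrp4, held under quantile normalization, median centring, cyclic loess, the dim filter, array weights, the replicate block and a robust fit with an intensity trend.

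Called member genes and called member probe sets numbered 2 each, and 0 to 2 on leaving out 1 array. At an adjusted p of 0.01, 0 of either passed, with 436 of all probe sets and 0 of the other Wnt genes, by limma. With probe sets averaged per gene, 1 member gene (Sfrp4) and 5 of the other Wnt genes passed. The 3 called among the other Wnt genes were 5 with the dim filter and 8 with array weights (3 higher and 5 lower), and 0 to 4 on leaving out 1 array. Over all probe sets 2119 were called, 4480 with array weights and 515 to 3393 on leaving out 1 array, where fewer samples are fitted. The runs for Fzd9, Ccn4 and Prrx1 were added after seeing the data, and Prrx1 did not pass in the robust fit with an intensity trend (limma adjusted p = 0.0585) or with the replicate block (0.0722).

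The labels give both ages replicate numbers 1 to 3, without saying that a number marks a shared litter or day. Deviations from the age means of same-numbered arrays correlated at 0.14, 0.08 and 0.01 across probe sets, and not every array correlated best with its own number. With the replicate block, 2 member genes, 2 member probe sets, 4 other Wnt genes and 1932 of all probe sets were called. Depth is unknown for arrays, and dim probe sets such as those of Wif1 and Sfrp2 allow no statement on presence of the transcript.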

Other observations

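Replicate 1 was the lowest array of its age in both ages for 4 of the 10 genes at their brightest probe set (Dkk2, Fzd8, Sfrp1 and Wif1), against 15.1% of all 18193 genes. This order was looked at after the values were seen and was not tested. Of 7 measured osteoblast and osteocyte genes, 2 had it (Dmp1 and Mepe). Mepe, an osteocyte matrix protein, read 6.69, 7.36 and 6.74 on the old arrays, against 7.75, 8.66 and 8.62 on the young arrays, so that old replicates 1 and 3 and young replicate 1 were the low ones, as for Wif1. Ibsp read 5.36, 6.56 and 4.16 in old tissue, against 6.63, 7.99 and 8.22 in young tissue, again with old replicates 1 and 3 and young replicate 1 as the low ones. Sost, the osteocyte antagonist sclerostin, read 5.87, 6.77 and 5.68 in old tissue, against 6.83, 7.40 and 7.68 in young tissue. Its difference of -1.20 ± 0.29 was the lowest of the 90 other Wnt genes and did not pass (limma adjusted p = 0.0580). Other genes of the same list had other orders. Alpl read 8.86, 8.38 and 8.31 in old tissue, against 8.20, 8.05 and 8.33 in young tissue, with old replicate 1 the highest of its age and young replicate 2 the lowest. Sp7, an osteoblast transcription factor, read 7.24, 7.33 and 7.08 in old tissue, against 7.25, 7.15 and 7.38 in young tissue. The same low arrays were seen outside the bone list. The marrow myeloid gene Camp read 6.25, 6.85 and 5.98 in old tissue, against 7.59, 8.16 and 8.38 in young tissue. S100a8, S100a9 and Ngp of that list had the same low arrays, while Mpo and Elane had other orders. Ltf was low on old replicate 3 and young replicate 1, but its old replicates 1 and 2 were close, at 6.39 and 6.43. Mepe, Ibsp, Sost and these marrow genes were picked after their values were seen. The share of all genes with the same low arrays was not counted, so whether this order is unusual is not known. Whether the spread of Wif1, of Mepe, Ibsp and Sost and of the marrow genes has a common source was not tested.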
